A study of Mus musculus with 8 samples.

Results

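The genes described here are the core genes of the circadian clock, Arntl, Clock, Per1, Per2, Per3, Cry1, Cry2, Nr1d1, Nr1d2 and Dbp. They were taken by name, not by their values, and are 10 of the 54838 genes in the count tables. All 10 had enough counts to be among the 17839 genes tested. Their values come from RNA sequencing of the epidermis of mouse skin, a stratified epithelium of keratinocytes, which was released with trypsin and lysed in Trizol. Each of the 8 libraries carries 1 of 4 labels, Ovol1/2 iDKO at 52 DPI, control at 52 DPI, Ovol1/2 iDKO at 25 DPI and control at 25 DPI, with 2 biological replicates for each. Ovol1 and Ovol2 are genes of zinc finger transcription factors that act in epithelia. What DPI stands for, the driver of the deletion, whether control mice carry any of the alleles or received the same agent, and the strain and age of the mice are not stated by the labels. The hour of day at which skin was collected is not stated either, so a level in 1 library cannot be placed on the daily cycle.

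The mammalian clock is a loop of transcription. ARNTL, also called BMAL1, pairs with CLOCK and activates genes at E-box sequences, among them the Period and Cryptochrome genes, whose proteins then inhibit that pair. A further arm runs through Nr1d1 and Nr1d2, which encode the nuclear receptors REV-ERBα and REV-ERBβ, repressors of Arntl that compete with the ROR receptors. Dbp encodes a PAR bZIP activator that acts at D-box sequences and carries the rhythm to output genes. In a tissue with a running clock, Arntl peaks when Dbp and Nr1d1 are low, and Dbp and Nr1d1 lead the Period genes. In the epidermis the clock is known for timing keratinocyte division and the response to ultraviolet light. Per1 is also a direct target of glucocorticoid and cyclic AMP signalling, so its RNA can move apart from the rest of the loop.

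The DNA in front of the starts of these genes holds the sequences through which the loop acts, and those of the genes in which a clock motif was found are shown here to place the values that follow. Sequences are RefSeq's for GRCm38.p6, 5′ to 3′ on the gene's strand, with the motif in capitals. The Per1 stretch is chr11:69098699-69098948 on the plus strand and has an E-box at base -166 from the first of its 2 listed starts. The gene as annotated begins upstream of that stretch, at base 69095217. The Cry1 stretch is chr10:85185055-85185304 on the minus strand, with an E-box at base -60. The Per3 stretch is chr4:151044666-151044915 on the minus strand and holds D-boxes at bases -205 and -158. The Arntl stretch is chr7:113207529-113207558 on the plus strand, around a ROR response element 31 bases into the transcript from its second listed start.
Per1: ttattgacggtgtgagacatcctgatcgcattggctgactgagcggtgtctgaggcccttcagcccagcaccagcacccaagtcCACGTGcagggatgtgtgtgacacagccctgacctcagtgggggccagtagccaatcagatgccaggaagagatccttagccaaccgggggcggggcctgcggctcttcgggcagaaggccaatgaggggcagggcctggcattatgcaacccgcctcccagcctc
Cry1: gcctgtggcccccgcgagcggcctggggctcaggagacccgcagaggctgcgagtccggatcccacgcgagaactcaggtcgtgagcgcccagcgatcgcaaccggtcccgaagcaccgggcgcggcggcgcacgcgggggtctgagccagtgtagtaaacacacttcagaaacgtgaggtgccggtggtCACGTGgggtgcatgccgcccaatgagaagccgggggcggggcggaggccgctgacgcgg
Per3: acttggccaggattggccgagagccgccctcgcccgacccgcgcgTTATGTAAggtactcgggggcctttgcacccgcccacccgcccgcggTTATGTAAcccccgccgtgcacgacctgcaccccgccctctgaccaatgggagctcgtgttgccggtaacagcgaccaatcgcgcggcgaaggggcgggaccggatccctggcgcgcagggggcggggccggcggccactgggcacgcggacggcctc
Arntl: gaaggcagaaagTAGGTCAgggacggaggt
The search covered windows of 250 bases before and 50 bases after each listed start, on both strands. The table had 13 such windows for 9 of the genes and none for Per2. The E-box CACGTG was in 7.15% of all 32851 windows and in those of Per1 and Cry1. The D-box, TTATGTAA or TTACGTAA, was in 1.06% of windows and here in that of Per3. The ROR response element, TAGGTCA or TGGGTCA, was in 6.45% of windows and here in 1 of Arntl. The cyclic AMP response element TGACGTCA was in 1.79% of windows and in none of the 13. Each match is a match of letters, and a window without one says nothing of sites outside it.

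The libraries differed in several ways that touch what follows. Totals were 9824307 to 50711381 counts. Of the strand-assigned reads, the second strand took 95.4% to 95.7% in replicate 2 and 49.8% to 49.97% in replicate 1 of each group, so the replicate numbers also mark a difference in the libraries. The Y-linked Ddx3y was at 0 CPM (counts scaled to library size) in all 4 libraries of 52 DPI, against 39.4 to 114 CPM in those of 25 DPI, whereas Xist was at 131 to 1139 CPM at 52 DPI and 0.119 to 0.342 CPM at 25 DPI. Sex and time therefore cannot be told apart. Ovol1 and Ovol2 had more CPM in the library labelled iDKO than in control in every pair of libraries of 1 time and replicate number. Their counts thus show no loss under that label. The deleted part is not given, so counts over the whole gene cannot check the label. Directions below are those of the libraries labelled iDKO. The 12 keratinocyte markers summed to 33480 to 60510 CPM in all 8 libraries. Sums of markers are scaled by library size alone, without the TMM step used for single genes. Control replicate 1 at 25 DPI stood apart, with 367 CPM of 8 melanocyte markers, against 68.7 to 86.0 CPM in the others, and with its 5 erythroid markers above the 0.718 to 19.4 CPM of the others. Its 10 T cell markers summed to 686 CPM, and those of replicate 2 labelled iDKO at 52 DPI to 664 CPM, against 155 to 377 CPM in the other libraries. Replicate 2 labelled iDKO at 52 DPI stood apart too, with 306 CPM of 10 hair follicle markers, against 20.7 to 41.6 CPM in the others, and with the lowest keratinocyte sum of the 8. No marker of these 5 lists was at 0 in all libraries. The 7 Langerhans cell markers summed to 1661 and 1374 CPM in the iDKO-labelled libraries at 52 DPI, against 892 and 647 CPM in control. At 25 DPI they summed to 776 and 643 CPM in those labelled iDKO, against 1743 and 243 CPM in control.

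Control replicate 1 at 25 DPI was also where 9 of the 10 clock genes, all but Dbp, had their lowest CPM of the 8 libraries. Of all tested genes, 30% were lowest there. The pairs of replicate 1 and replicate 2 are therefore given apart, and the call of Per1 below also without that library. In whole epidermis, fewer cells that express a gene and less RNA per cell cannot be told apart.

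Per kilobase of exon, Per1 had the highest median level, 28.7 CPM per kb over the 8 libraries (6.08 to 92.5). Nr1d1 followed at 20.6 (9.11 to 45.3) and Nr1d2 at 17.3 CPM per kb (4.99 to 27.6). Arntl had a median of 9.78 CPM per kb (6.05 to 13.6), the narrowest range of the 10 as a ratio of highest to lowest. Cry2, Clock and Cry1 lay close together, at 6.86, 6.34 and 5.54 CPM per kb. Dbp was at 2.32, Per3 at 1.41 and Per2 at 0.9 CPM per kb, with 0.0781 to 2.63 for Per2. Neighbours in this order mostly overlapped. Nr1d1 was above Nr1d2 in all 8 libraries, but Per1 was above Nr1d1 in 5, Cry2 above Clock in 4 and Clock above Cry1 in 4. The Dbp level has a limit of its own, since 539 bases, 18.0% of its exon sequence, overlap Sphk2 on the other strand. For Nr1d1 the overlap with Thra is 263 bases or 8.55%, for Cry2 it is 4.67% and for Arntl 0.439%.

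**Figure D1:**
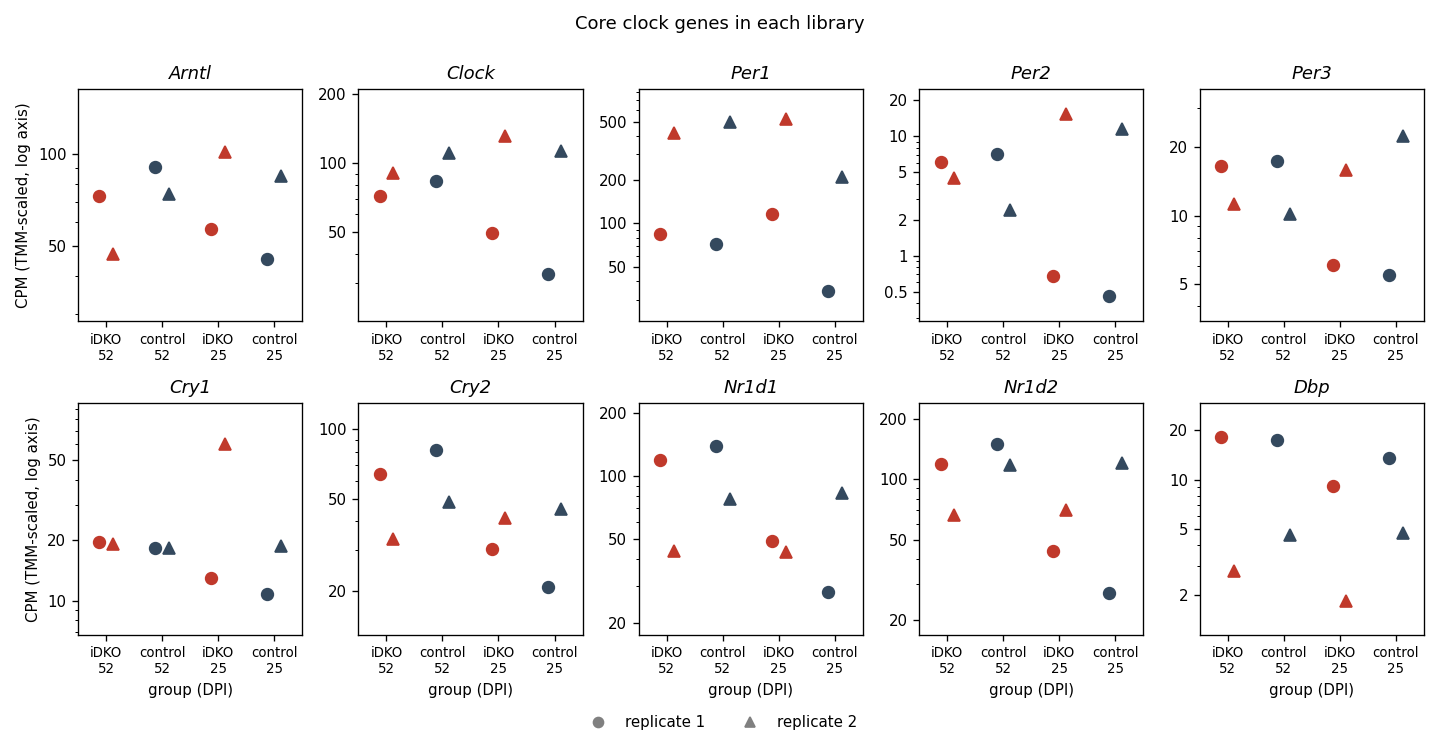
CPM on a log axis of each of the 10 clock genes in the 8 libraries, 1 panel per gene, with libraries labelled iDKO left of control at 52 and then at 25 DPI. Circles are replicate 1 and triangles replicate 2. Per1 reaches 521 CPM in replicate 2 labelled iDKO at 25 DPI, and Per2 is lowest, at 0.458 CPM, in control replicate 1 at 25 DPI.

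The activators Arntl and Clock had opposite directions at the 2 times. Arntl was at 72.8 and 47.0 CPM in the iDKO-labelled libraries at 52 DPI (replicates 1 and 2), against 91.1 and 74.4 CPM in control. At 25 DPI it had 57.0 and 102 CPM in those labelled iDKO, against 45.5 and 84.9 CPM in control. Arntl was thus lower in the library labelled iDKO in both pairs at 52 DPI, at 0.7995 and 0.632 of control, and higher in both at 25 DPI, at 1.25 and 1.20 of control. Clock, which encodes the partner of ARNTL, had the same directions. Its levels were 71.9 and 90.7 CPM in the iDKO-labelled libraries at 52 DPI, against 83.4 and 111 CPM in control. They were 49.4 and 131 CPM in those labelled iDKO at 25 DPI, against 32.8 and 113 CPM in control. The pair ratios of Clock were 0.862 and 0.816 at 52 DPI and 1.51 and 1.16 at 25 DPI. For both genes, the 25 DPI ratio of replicate 1 is against the control library that stood apart. These directions were shared by 8.40% of all genes. Of the keratinocyte markers, Krt5, Itgb4, Dsc3 and Lor had them too and the others did not. At 52 DPI the 2 genotypes did not overlap for Arntl and overlapped for Clock.

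Among the inhibitors, Per1 showed the widest gap between genotypes. At 52 DPI Per1 had 84.8 and 421 CPM in the iDKO-labelled libraries, against 72.7 and 495 CPM in control, 1.17 and 0.849 times control in the 2 pairs. The 25 DPI levels were 115 and 521 CPM in the iDKO-labelled libraries, against 34.3 and 208 CPM in control, 3.37 and 2.504 times control. Replicate 2 was above replicate 1 in every group, so the genotypes overlapped at both times even where the pairs had 1 direction. Per1 averaged 318 ± 287 CPM in the iDKO-labelled libraries at 25 DPI and 121 ± 123 CPM in control (SD, n = 2 each).

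Per2 was the lowest of the 10 per kilobase and had the widest spread between libraries. Per2 at 52 DPI had 6.09 and 4.45 CPM in the iDKO-labelled libraries, against 7.08 and 2.43 CPM in control. At 25 DPI it had 0.684 and 15.4 CPM in those labelled iDKO, against 0.458 and 11.5 CPM in control, where 0.458 CPM stands for 7 counts. Per3 was at 16.5 and 11.3 CPM in the iDKO-labelled libraries at 52 DPI, against 17.5 and 10.2 CPM in control. At 25 DPI Per3 was at 6.05 and 15.9 CPM in those labelled iDKO, against 5.49 and 22.6 CPM in control, and its pairs had opposite directions at both times.

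The Cryptochromes, which carry the repression of ARNTL and CLOCK, differed in pattern. Cry1 was at 19.5 and 19.2 CPM in the iDKO-labelled libraries at 52 DPI, against 18.4 and 18.2 CPM in control. At 25 DPI it had 12.9 and 60.3 CPM in those labelled iDKO, against 10.9 and 18.7 CPM in control. A single library, replicate 2 labelled iDKO at 25 DPI, was 3.23 times its control and lay far above the other 7, which ranged between 10.9 and 19.5 CPM. Cry2 was at 64.0 and 33.6 CPM in the iDKO-labelled libraries at 52 DPI, against 81.1 and 48.4 CPM in control, lower in both pairs. At 25 DPI Cry2 was at 30.5 and 41.5 CPM in those labelled iDKO, against 20.8 and 45.2 CPM in control, with no shared direction.

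The REV-ERB genes had the same direction as each other in all 4 pairs of libraries. Nr1d1 was at 119.7 and 44.1 CPM in the iDKO-labelled libraries at 52 DPI, against 139 and 77.9 CPM in control. At 25 DPI it had 48.7 and 43.4 CPM in those labelled iDKO, against 28.1 and 83.2 CPM in control. Nr1d2 was at 119 and 66.1 CPM in the iDKO-labelled libraries at 52 DPI, against 149 and 117 CPM in control. The 25 DPI levels of Nr1d2 were 43.7 and 70.0 CPM in those labelled iDKO, against 27.0 and 119.6 CPM in control. Both genes were lower in the iDKO-labelled libraries in both pairs at 52 DPI (0.859 and 0.566 of control for Nr1d1, 0.796 and 0.565 for Nr1d2). At 25 DPI both were higher in replicate 1 (1.74 and 1.62 times control) and lower in replicate 2 (0.522 and 0.585 of control). The higher ratios of replicate 1 at 25 DPI are against the control library that stood apart.

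Dbp, the output activator, was at 18.2 and 2.81 CPM in the iDKO-labelled libraries at 52 DPI, against 17.3 and 4.62 CPM in control. At 25 DPI it had 9.13 and 1.85 CPM in those labelled iDKO, against 13.5 and 4.79 CPM in control, 0.678 and 0.387 of control. Dbp was lower in replicate 2 than in replicate 1 in every group, opposite to Per1. For the replicate 2 libraries, whose reads keep the strand, the second-strand column held more Dbp counts than the column without strand, for example 381 against 241 in control at 25 DPI. With second-strand counts in the replicate 2 libraries, the log2 fold change of Dbp at 25 DPI was -0.81 (SE 0.89), against -0.75 (SE 1.16) with counts without strand.

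**Figure D2:**
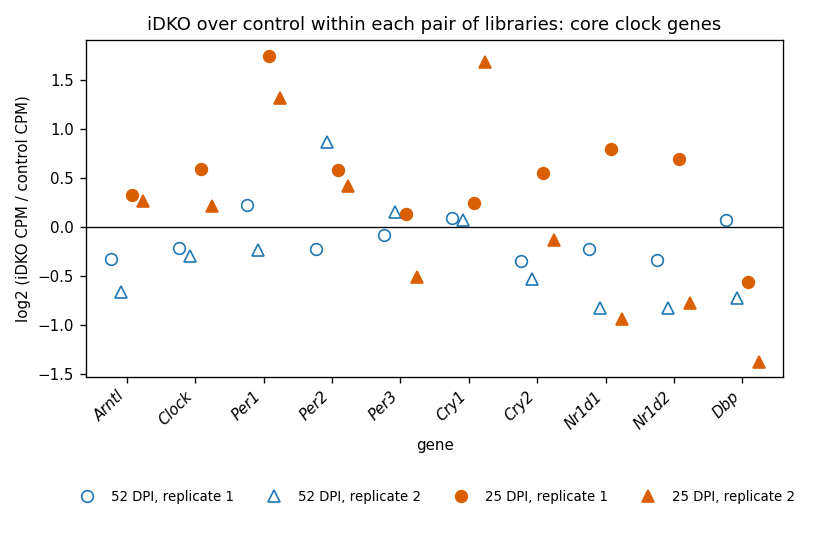
log2 of the CPM in the library labelled iDKO over the CPM in control, within each of the 4 pairs of libraries, for the 10 clock genes. Open symbols are 52 DPI, filled symbols 25 DPI, circles replicate 1 and triangles replicate 2. Arntl and Clock lie below 0 in both 52 DPI pairs and above 0 in both 25 DPI pairs, and Cry1 lies above 0 in all 4.

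The comparison at 25 DPI set the libraries labelled Ovol1/2 iDKO against control, a label that the Ovol1 and Ovol2 counts cannot check. Per1 and Cry1 had the largest positive log2 fold changes of the 10, 1.39 (SE 1.31) and 1.31 (SE 0.72), and Dbp the largest negative one, -0.75 (SE 1.16). The other 7 lay between -0.37 for Nr1d2 and 0.43 for Per2. None passed the test in edgeR's quasi-likelihood fit (adjusted p 0.9999 for each), in which 0 of all genes were called (0%) and 75 had an unadjusted p under 0.05. DESeq2 without a block called 2 genes (0.0112%) and limma-voom 0, none of them a clock gene. Of the clock genes, 5 (Arntl, Clock, Per1, Per2 and Cry1) were higher in the library labelled iDKO in both pairs, where 25.5% of all genes were, and 1, Dbp, was lower in both, where 26.0% of genes were. No clock gene had groups that did not overlap (5.39% of all genes higher and 5.15% lower).

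When libraries of 1 replicate number were compared with each other, DESeq2 called Per1 at 25 DPI and edgeR did not. In edgeR's fit with the replicate number as a block within time, its log2 fold change at 25 DPI was 1.54 (SE 0.25), with an adjusted p of 0.4636. The same block in DESeq2, added after the data were seen, gave 1.52 (SE 0.28) with an adjusted p of 8.5e-05. That fit called 96 of the tested genes (0.538%), and Per1 was the only clock gene among them. Both fits with the block rest on 2 pairs at 25 DPI. They have fewer residual degrees of freedom than the 4 of the fit without a block. Without control replicate 1, the library that stood apart, DESeq2 with the block gave an adjusted p of 0.04743 for Per1, and without replicate 1 labelled iDKO it gave 0.05275 and the call was lost. Leaving out either library of a 25 DPI pair leaves 1 pair to give the value. The log2 fold change was 1.32 to 1.75 over the 8 fits that each left out 1 library.

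At 52 DPI no clock gene passed the test. Of the 10, 7 had a negative log2 fold change, with a median of -0.21 over the 10, against -0.01 over all tested genes. The largest was -0.53 (SE 0.74) for Nr1d2, then -0.46 (SE 0.55) for Arntl, -0.41 (SE 0.59) for Cry2 and -0.41 (SE 0.71) for Nr1d1. Per1 was at -0.17 (SE 1.29). The adjusted p was 1 for each in edgeR, and none of the 10 passed in DESeq2 with the block, which called 35 genes (0.196%). EdgeR called 0 genes of the whole table (0%), with 143 at an unadjusted p under 0.05, DESeq2 without a block 1 (0.00561%) and limma-voom 0. Arntl, Clock, Cry2, Nr1d1 and Nr1d2 were lower in the library labelled iDKO in both pairs, where 30.4% of all genes were, and Cry1 was higher in both, where 27.8% were. The keratinocyte markers went the same way, with 11 of 12 at a negative log2 fold change and a median of -0.45, and 0 called by edgeR. They summed to 58790 and 33480 CPM in the iDKO-labelled libraries, against 60510 and 55600 CPM in control, so the low library was replicate 2 labelled iDKO, and their part in the clock values was not tested. Groups did not overlap for Arntl, lower in the iDKO-labelled libraries (10.2% of genes), and for Cry1, higher (11.9% of genes).

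Across both times Cry1 was the clock gene with 1 direction throughout, higher in the library labelled iDKO in 4 of 4 pairs. That held for 6.73% of all genes, and no clock gene was lower in all 4 pairs (6.70% of genes). The log2 fold change of Cry1 was 0.70 (SE 0.52) and that of Per1 0.61 (SE 0.93), with adjusted p 1 in edgeR. Without replicate 2 labelled iDKO at 25 DPI the value for Cry1 was -0.01, in a fit that leaves the replicate numbers unbalanced. The pair ratios of Cry1 were 1.06 and 1.05 at 52 DPI and 1.19 and 3.23 at 25 DPI, so its value leaned on that library. EdgeR called 0 genes here (0%, 130 at an unadjusted p under 0.05), DESeq2 8 (0.0448%), limma-voom 0 and DESeq2 with the block 70 (0.392%), none of them a clock gene.

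The difference between the genotype effects, that at 52 DPI minus that at 25 DPI, was negative for 8 of the 10 clock genes, with a median of -0.41 on the log2 scale, against 0.02 over all genes. Per1 had -1.56 (SE 1.83), Cry1 -1.23 (SE 1.01), Arntl -0.75 (SE 0.78) and Clock -0.57 (SE 1.02), with adjusted p 1 for each in edgeR, which called 0 genes (0%, 139 at an unadjusted p under 0.05). DESeq2 without a block and limma-voom also called 0. With the block within time, DESeq2 gave -1.55 (SE 0.40) for Per1 with an adjusted p of 0.04145, among 38 called genes (0.213%). EdgeR with the same block gave an adjusted p of 0.7925. The DESeq2 call was lost without any 1 of the 4 libraries of 52 DPI or either replicate 1 library of 25 DPI. Each of the 8 fits without 1 library left 1 pair at that library's time. Neither a lost nor a kept call is thus a check of the effect. Arntl and Clock were the clock genes higher in both 25 DPI pairs and lower in both 52 DPI pairs, as were 8.40% of all genes.

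Between times, the REV-ERB genes and Cry2 had the largest differences, higher at 52 DPI. The log2 fold change of 52 over 25 DPI, over both genotypes, was 0.90 (SE 0.46) for Nr1d1, 0.78 (SE 0.48) for Nr1d2 and 0.71 (SE 0.39) for Cry2. Per2 was at -0.48 (SE 1.02) and Arntl at -0.03 (SE 0.37). None of the 10 passed edgeR's test (adjusted p 0.8616 to 0.9917), in which 4 genes of the whole table were called (0.0224%) and 720 had an unadjusted p under 0.05. DESeq2 called 72 genes (0.404%) and with the block 255 (1.43%), none of them a clock gene. These values compare the libraries as a whole, since the sex of the mice changed with time and the hour of collection is not known.

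The times did not differ in the same way in the 2 sets of libraries. In replicate 1, both 52 DPI libraries were above both 25 DPI libraries for 9 of the 10 clock genes, all but Per1, where 32.7% of all genes were, and below them for 0 (36.6% of genes). In replicate 2 that held for 0 of the 10 (23.7% of genes), and Arntl, Clock, Per2 and Per3 had both 52 DPI libraries below both 25 DPI libraries (25.3% of genes). Those 4 genes were higher at 52 DPI in replicate 1 and lower in replicate 2, a crossing that 11.2% of genes had. Per2 shows it most. It was at 6.09 and 7.08 CPM at 52 DPI in replicate 1, labelled iDKO and control, against 0.684 and 0.458 CPM at 25 DPI. In replicate 2 it was at 4.45 and 2.43 CPM at 52 DPI, against 15.4 and 11.5 CPM at 25 DPI. No clock gene had all 4 libraries at 52 DPI above all 4 at 25 DPI (2.65% of genes) or below them (1.64%).

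Pairs of libraries differed from each other more than the genotypes did within a pair. For 9 of the 10 clock genes, all but Cry1, the 4 pair means ranged over more log2 units than the largest difference within a pair, and the same was true of 78.2% of all genes. The range of pair means was 3.70 log2 units for Per2, 2.85 for Per1 and 2.37 for Dbp, with a median of 1.71 over the 10 and of 1.26 over all genes. Within pairs, the mean difference had a median of 0.468 log2 units over the clock genes and 0.342 over all genes. The pair of replicate 1 at 25 DPI was the lowest for all of them but Dbp. Clock and Per1 were higher in replicate 2 than in replicate 1 at each genotype and time (18.5% of genes), and Dbp was lower (18.3%).

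A ratio of 2 genes in 1 library does not depend on its scaling, and Nr1d1 over Arntl sets a repressor against its target. The ratio of CPM was 1.64 and 0.937 in the iDKO-labelled libraries at 52 DPI, against 1.53 and 1.05 in control. At 25 DPI it was 0.854 and 0.424 in those labelled iDKO, against 0.616 and 0.979 in control. In replicate 1 the ratio was higher at 52 than at 25 DPI in both genotypes, whereas in replicate 2 the lowest value was that of the library labelled iDKO at 25 DPI and the 3 others lay within 0.937 to 1.05.

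Of 17 other clock genes, 16 were tested and 0 were called by edgeR in any of the 5 comparisons. At 25 DPI 7 were higher and 9 lower in the iDKO-labelled libraries, with a median log2 fold change of -0.05, against -0.03 over all genes. At 52 DPI 4 were higher and 12 lower, with a median of -0.16, against -0.01. Npas2, which encodes a relative of CLOCK that also pairs with ARNTL, was at 28.7 and 13.2 CPM in the iDKO-labelled libraries at 52 DPI, against 39.2 and 32.1 CPM in control. At 25 DPI Npas2 was at 16.3 and 56.3 CPM in those labelled iDKO, against 3.14 and 45.6 CPM in control, so it had the same signs as Arntl and Clock in all 4 pairs. Rora, an activator of Arntl, also had those signs, at 147 and 158 CPM in the iDKO-labelled libraries at 52 DPI, against 151 and 272 CPM in control. Its 25 DPI levels were 185 and 451 CPM in those labelled iDKO at 25 DPI, against 123 and 350 CPM in control. Hlf, Bhlhe40 and Csnk1d had those signs too, whereas Csnk1e had the reverse in all 4 pairs. The rest of the list, Arntl2 among them, did not share those signs, which 8.40% of all genes had. Bhlhe41, which encodes the repressor DEC2, was higher in the iDKO-labelled libraries in both 52 DPI pairs, at 2.23 and 7.78 CPM against 0.853 and 2.90 CPM in control. Nfil3, a repressor at D-boxes, was at 83.6 and 124 CPM in the iDKO-labelled libraries at 25 DPI, against 112 and 38.1 CPM in control, and its pairs went opposite ways.

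Among 6 clock output genes, 3 were higher and 3 lower at 25 DPI in the iDKO-labelled libraries, and 2 were higher and 4 lower at 52 DPI, with 0 called by edgeR. Wee1, a kinase that holds back entry into mitosis, was at 138 and 48.1 CPM in the iDKO-labelled libraries at 52 DPI, against 183 and 114 CPM in control. Usp2, a ubiquitin protease, was at 18.6 and 14.0 CPM in the iDKO-labelled libraries at 52 DPI, against 24.9 and 42.9 CPM in control, a log2 fold change of -1.06 (SE 0.52). Both were lower in the library labelled iDKO in both 52 DPI pairs and higher in both 25 DPI pairs, as were 8.40% of genes. Here too, the 25 DPI ratio of replicate 1 is against the control library that stood apart.

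**Figure D3:**
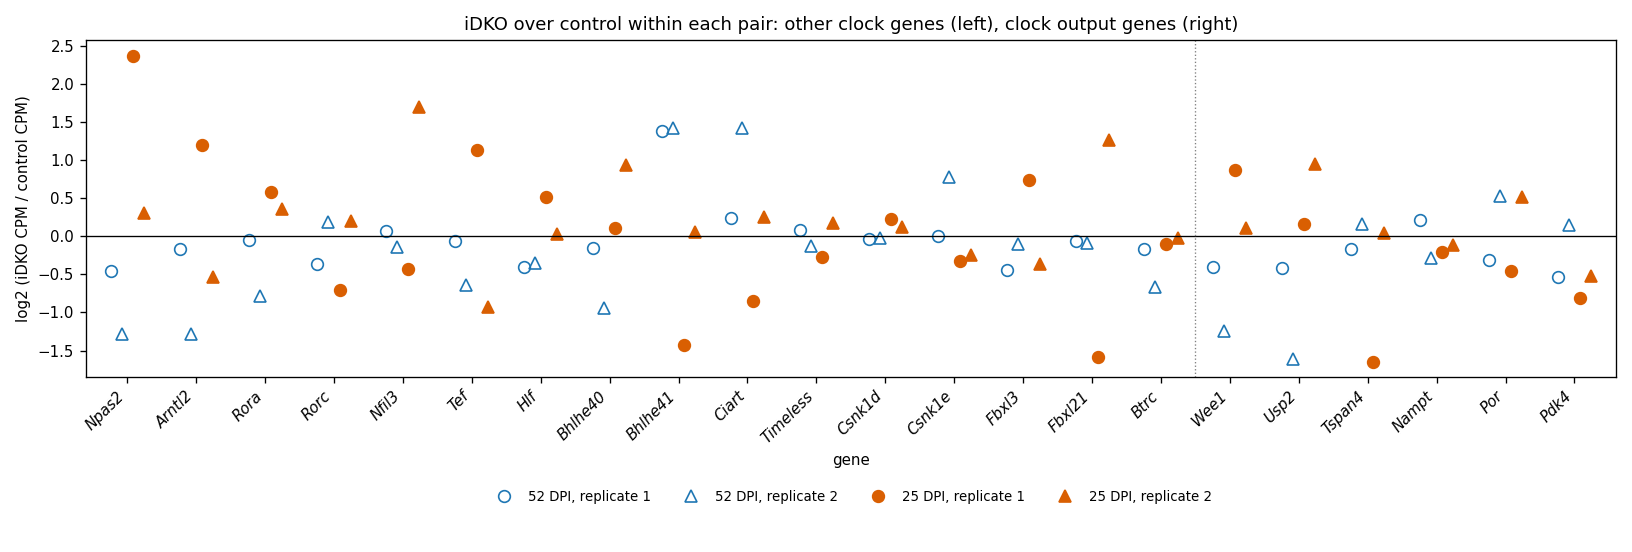
log2 of the CPM in the library labelled iDKO over the CPM in control, within each pair of libraries, for the other clock genes and the clock output genes that were tested. Open symbols are 52 DPI, filled symbols 25 DPI, circles replicate 1 and triangles replicate 2. Npas2 lies at -0.45 and -1.29 at 52 DPI and at 2.38 and 0.31 at 25 DPI. Replicate 1 at 25 DPI is set against the control library that stood apart.

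Genes that answer to glucocorticoids and to cell stress, of which Per1 is 1, were counted beside it. Of 9 glucocorticoid-induced genes, Per1 included, 6 were higher and 3 lower in the iDKO-labelled libraries at 25 DPI, with a median log2 fold change of 0.11, and 0 were higher and 9 lower at 52 DPI, with a median of -0.46. Of 10 immediate-early genes, the rapid genes of the stress response that also respond to tissue dissociation, 9 were higher at 25 DPI, with a median of 0.21, and 10 were lower at 52 DPI, with a median of -0.45. Over all genes these medians were -0.03 and -0.01. The counts and medians are from edgeR without a block, and Dusp1 is in both lists. With the block within time, edgeR gave -0.16 for Fos and -0.0005 for Dusp1 at 25 DPI, so their signs changed. So did that of Sgk1 at 52 DPI, at 0.0429. None of either list was called by edgeR. Nr4a1, an immediate-early gene that encodes an orphan nuclear receptor, was at 835 and 1390.0 CPM in the iDKO-labelled libraries at 52 DPI, against 1352 and 2686 CPM in control. Its 25 DPI levels were 620.3 and 2662 CPM in those labelled iDKO at 25 DPI, against 279.5 and 2342 CPM in control. The lower control level, that of replicate 1, is from the library that stood apart. Fkbp5, a glucocorticoid target, was at 71.2 and 54.0 CPM in the iDKO-labelled libraries at 25 DPI, against 47.9 and 361 CPM in control. The part of these genes, and of the markers of other cells above, in the Per1 result was not tested.

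**Figure D4:**
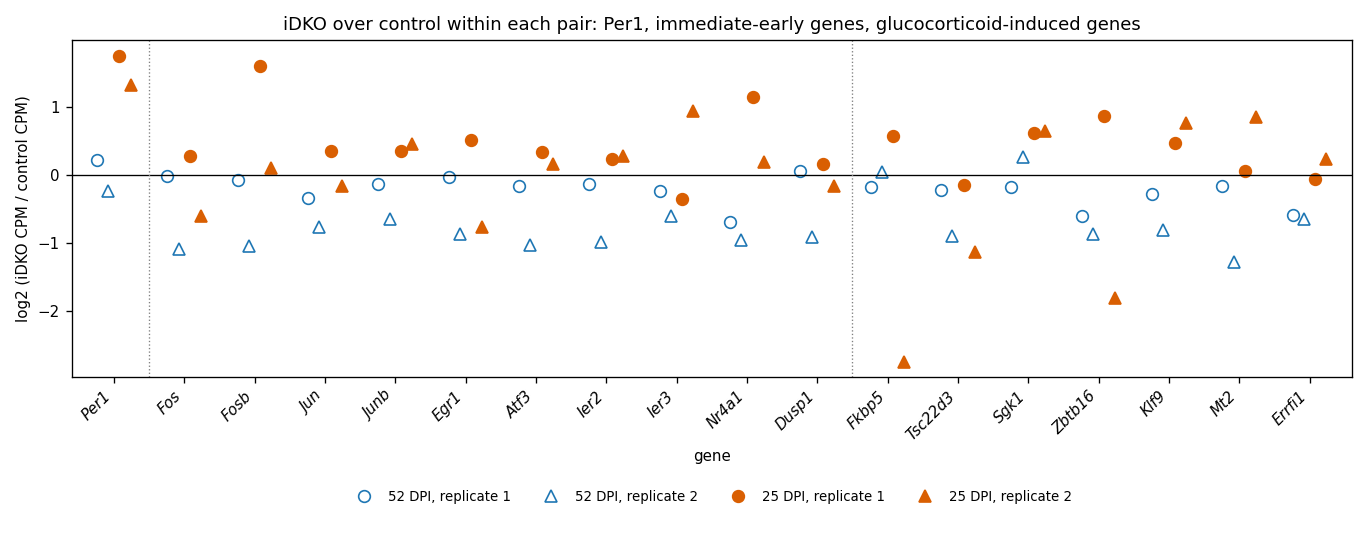
log2 of the CPM in the library labelled iDKO over the CPM in control, within each pair of libraries, for Per1 (left), the immediate-early genes (middle) and the other glucocorticoid-induced genes (right). Open symbols are 52 DPI, filled symbols 25 DPI, circles replicate 1 and triangles replicate 2. Nr4a1 lies at -0.69 and -0.95 at 52 DPI and at 1.15 and 0.18 at 25 DPI, and Fkbp5 reaches -2.74 in replicate 2 at 25 DPI.

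To look past the mean difference between replicate numbers, log2 CPM were centred within replicate 1 and within replicate 2. Changes with time that differ by replicate number stay in these values. The genes whose pattern within the replicate sets was closest to that of Arntl were Irs2, Aggf1, Mamdc4, Ncoa4, Cdc42bpa, Aff1, Sgms1 and Nos1ap, by the root mean square difference of these centred values among 12899 genes, 0.0946 for Irs2 and 0.115 for Nos1ap. Clock was the closest of the clock genes to Arntl, at 0.200, against a root mean square of 0.392 for the centred values of Arntl itself. The genes closest to Dbp were Cdc7, Reps2, 9430091E24Rik, A430046D13Rik, Tmem140, Gm12866, Pot1a and Mlh3, from 0.159 for Cdc7 to 0.228 for Mlh3. The clock gene closest to Dbp was Clock at 0.503, against a root mean square of 0.434 for the centred values of Dbp, which leave out the gap in Dbp between replicate 1 and replicate 2. These are descriptions of 8 libraries that share a replicate structure.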

How the data were processed

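RNA was sequenced from trypsin-isolated epidermis in 8 libraries, per the labels' protocols, which name a SMART-seq v4 kit. The replicate numbers differed in strand shares, so the libraries may not all have been prepared alike. STAR 2.5.2a, Trimmomatic 0.35 and DESeq2 1.24.0 were used with GRCm38, per the submitters' processing notes. The tables the authors deposited hold raw read counts for each gene, without strand and for each strand, and the column without strand was used. Symbols came from GENCODE by identifier for 54723 of 54838 genes. Reads of overlapping genes on opposite strands cannot be told apart in it.

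Genes were filtered with edgeR 4.0.16 (R 4.3.3), scaled by TMM and tested with its quasi-likelihood model, with 1 mean per group and 4 residual degrees of freedom, or with time and genotype and 5. Benjamini-Hochberg adjustment ran over 17839 genes, and a gene with an adjusted p under 0.05 was called. CPM of single genes are these counts after scaling by library size and TMM. Summed CPM of cell type markers were scaled by library size alone. Scripts were tested on simulated data. Alternatives were DESeq2 1.42.0, its size factors, limma-voom (limma 3.58.1), no filter, the second-strand column, a replicate block and leaving out each library. DESeq2 with the block and the ratio of Nr1d1 to Arntl were chosen after seeing the data.

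The labels number replicates 1 and 2 in every group. Deviations from group means correlated at 0.403 to 0.831 between same-numbered libraries, for each of 6 combinations of groups, and same-numbered libraries were treated as pairs. P values without the block measure the spread between 2 replicates, which also differ in strand. The members, lists and tests were chosen with earlier results of these data known. All 10 clock genes are named. From each list up to 5 genes with the smallest unadjusted p in a comparison could be named, and 8 genes closest in pattern to Arntl and to Dbp.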

Additional observations from a re-analysis of the deposited data

Results flagged for a closer look

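For Per1 the difference between the genotype effects at the 2 times passed 1 test of those run. The effect at 52 DPI minus that at 25 DPI was -1.55 on the log2 scale in DESeq2 with the replicate block (adjusted p 0.04145), -1.54 with adjusted p 0.7925 in edgeR with the same block, and -1.56 with adjusted p 1 in edgeR without it. The call was lost in 6 of the 8 fits of DESeq2 with the block that left out 1 library. Each of those 8 left 1 pair at 1 of the times. Like 8.40% of genes, Arntl and Clock were higher under the iDKO label in both 25 DPI pairs and lower in both at 52 DPI. The same difference was -0.75 for Arntl and -0.57 for Clock, and neither passed edgeR's test of it (adjusted p 1).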

How the results depend on the processing

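EdgeR called 0 genes in each genotype comparison, and DESeq2 2 at 25 DPI, 1 at 52 DPI and 8 across both times. DESeq2 with the replicate block called 96, 35, 70 and, for the difference between times, 38. With no filter on low counts edgeR called 8, 25, 16 and 19. With the replicate block within time, edgeR found 1 gene across both times. For 52 over 25 DPI edgeR called 4 genes, DESeq2 72, DESeq2 with the replicate block 255, edgeR with no filter 184 and with second-strand counts 1, and 0 to 2 without 1 library. The block within time cannot be fitted to that comparison. Per1 was called by DESeq2 with the replicate block at 25 DPI (log2 fold change 1.52) and for the difference between times (-1.55), and the block changed no other call of a clock gene. Of 50 log2 fold changes of clock genes, 46 kept their direction in every setting that used all libraries. The exceptions at 52 DPI were Per2, at -0.0573 with the replicate block, and Per3, at -0.0115 with the block and -0.0122 with DESeq2 and with its size factors. For 52 over 25 DPI, Arntl was at 0.0145 with the block and 0.0132 in limma-voom, and Per2 at 0.55 with the block, 0.28 in limma-voom and 0.67 in DESeq2 with the block.

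Without 1 library, 9 of the 50 kept their direction. Leaving out a library unbalances the replicate numbers between groups, and the spread between pairs then enters the fold change. The range at 25 DPI was -0.18 to 0.84 for Arntl, -0.54 to 1.499 for Clock, -0.0479 to 3.25 for Per1, -3.10 to 4.18 for Per2, -1.20 to 1.04 for Per3, -0.19 to 2.07 for Cry1, -0.36 to 0.82 for Cry2, -0.89 to 0.74 for Nr1d1, -1.10 to 1.11 for Nr1d2 and -2.21 to 0.11 for Dbp. The range at 52 DPI was -1.73 to 1.81 for Per1, -0.41 to 1.12 for Per2, -0.32 to 0.45 for Per3, -0.95 to 0.0155 for Cry2, -1.31 to 0.15 for Nr1d1 and -1.97 to 1.19 for Dbp. The range across both times was -0.34 to 0.11 for Arntl, -0.36 to 0.38 for Clock, -0.11 to 1.56 for Per1, -0.84 to 1.32 for Per2, -0.43 to 0.40 for Per3, -0.0106 to 0.93 for Cry1, -0.39 to 0.0812 for Cry2, -0.67 to 0.0284 for Nr1d1, -0.76 to 0.0745 for Nr1d2 and -1.20 to 0.0115 for Dbp. The range for the difference between times was -1.76 to 0.30 for Clock, -3.42 to 0.42 for Per1, -4.03 to 3.26 for Per2, -1.03 to 1.22 for Per3, -1.99 to 0.29 for Cry1, -1.15 to 0.49 for Nr1d1, -1.63 to 0.58 for Nr1d2 and -1.23 to 2.15 for Dbp. The range for 52 over 25 DPI was -0.25 to 0.21 for Arntl, -0.17 to 0.52 for Clock, -0.49 to 1.18 for Per1, -0.89 to 0.66 for Per2, -0.0941 to 0.73 for Per3, -0.58 to 0.40 for Cry1 and -0.16 to 1.10 for Dbp. Per2 had 6 and 7 counts in the replicate 1 libraries of 25 DPI, labelled iDKO and control, which leaves its values there imprecise.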

Other observations

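Beside the clock genes, Tsc22d3, a glucocorticoid-induced gene that encodes the leucine zipper protein GILZ, had lower CPM at 52 than at 25 DPI in each genotype and replicate number. Its 52 DPI levels were 246 and 109.9 CPM in the iDKO-labelled libraries and 286 and 205 CPM for control, against 688 and 162 CPM in those labelled iDKO and 761 and 357 CPM for control at 25 DPI. Its log2 fold change in DESeq2 with the replicate block was -1.11 (SE 0.31), with an adjusted p of 0.02919, a fit chosen after seeing the data. It was not called by edgeR with the replicate block (-1.08, SE 0.29, adjusted p 0.469) or without it (-1.22, SE 0.53, adjusted p 0.8616). Zbtb16, a further glucocorticoid target, was highest in control replicate 2 at 25 DPI, at 630.0 CPM, as was Fkbp5. Sex changed with time in these libraries, so the cause of either pattern was not tested.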
